A study of Rattus with 6 samples.

Results

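The NRF2, cystine and glutathione antioxidant genes described here are Nfe2l2, Keap1, Slc7a11, Gclc, Gclm, Gsr, Txnrd1, Srxn1, Nqo1 and Hmox1, taken by their gene symbols from a table of read counts. All 10 were found among the 21378 genes of that table, each with 1 row, and all 10 were among the 14412 genes that passed a filter on low counts and were tested. After depletion of Nono, 6 of the 10 fell (Nfe2l2, Slc7a11, Gclc, Srxn1, Nqo1 and Hmox1) and 0 rose, where 15.9% of all genes tested fell and 16.2% rose. The 10 genes were chosen with earlier results of these data known, so these shares are a description and not a test. Slc7a11, the cystine transporter, fell most, to 47.8% of the control level, followed by Nqo1, which fell to 58.9%. The other changes were small, and Keap1, Gclm, Gsr and Txnrd1 did not pass the test.

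The libraries came from cultured rat cardiac fibroblasts, bought from a commercial supplier as a cell line. In each group 3 libraries were made from poly(A)-selected RNA, siNONO from cells lipofected with an siRNA against Nono, and siCtrl from control cells. The labels call the controls siCtrl in the titles and cells with an empty vector in another field, so the treatment of the controls is uncertain. For RT-qPCR and western blotting the labels say that cells were harvested 48 h after transfection, and they name no strain, age or sex of the source animals and no separate time for sequencing.

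NRF2, encoded by Nfe2l2, is a transcription factor that pairs with small MAF proteins at antioxidant response elements. In unstressed cells KEAP1 binds NRF2 and brings it to the CUL3 ubiquitin ligase for degradation, and oxidants or electrophiles that modify KEAP1 let NRF2 build up, so that the pathway is set largely at the level of NRF2 protein, which mRNA counts do not measure. Its classic targets import cystine and make and recycle glutathione, keep thioredoxin and peroxiredoxins reduced, and handle quinones and haem. Oxidative stress and this response are studied in cardiac fibroblasts because oxidants act on fibroblast activation in the heart.

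Total counts ranged from 27792357 to 33365588 per library. As the check of the labels, Nono stood at 237, 233 and 247 CPM in siCtrl and at only 69.9, 76.1 and 73.6 CPM in siNONO. CPM values are counts scaled by library total and TMM factor, and values per library are given in the order of replicates 1, 2 and 3. Fibroblast genes such as Col1a1, Col1a2 and Pdgfra were abundant, and 11 of 11 listed fibroblast markers passed the filter. Their siCtrl means ran from 35.6 CPM (Lum) to 15859 CPM (Col1a1). By edgeR 5 of the 11 fell (Dcn, Lum, Tcf21, Postn and Vim; 45.5%, against 15.9% of all genes). Ddr2 alone rose (9.09%, against 16.2%). The cardiomyocyte genes Myh6, Actn2 and Ryr2 had at most 4, 2 and 1 counts in any library, although the troponin gene Tnnt2 had 3535 to 4997. Macrophage genes were present: all 11 listed markers in the table passed the filter, each with at least 286 counts in every library.

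Changes are log2 fold changes (siNONO minus siCtrl) ± standard error (SE) from edgeR's quasi-likelihood test over all 14412 genes. A gene is said to have risen or fallen where its adjusted p (Benjamini-Hochberg over all genes tested) was under 0.05. The labels do not say that replicates came from separate cultures, so the p-values take in no more than the spread among these libraries, which may be technical. By an exact two-sided permutation test, 3 libraries against 3 cannot give a p below 0.1, and this was the value for each of the 7 genes whose groups did not overlap. In bulk RNA, fewer cells of a type and less RNA per cell cannot be told apart.

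Among the 10 genes the level per gene length was highest for Hmox1 and lowest for Slc7a11. In FPKM (reads scaled by the authors to gene length and library size), the siCtrl means were 276 ± 6.74 for Hmox1, 58.8 ± 3.39 for Nqo1 and 36.6 ± 1.00 for Nfe2l2 (SD, n = 3). Hmox1 lay above 98.1% of the tested genes on this scale. Txnrd1 (22.4 ± 1.03 FPKM) and Srxn1 (21.6 ± 1.53 FPKM) came next and did not differ beyond their spread, with overlapping siCtrl values. They were followed by Gsr (16.8 ± 0.545 FPKM), Gclm (13.8 ± 0.494 FPKM), Keap1 (10.9 ± 0.291 FPKM) and Gclc (9.19 ± 0.909 FPKM). Slc7a11 stood apart at 1.38 ± 0.167 FPKM, above only 28.6% of the tested genes. All other neighbours in this order were separated by their siCtrl values.

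**Figure D1:**
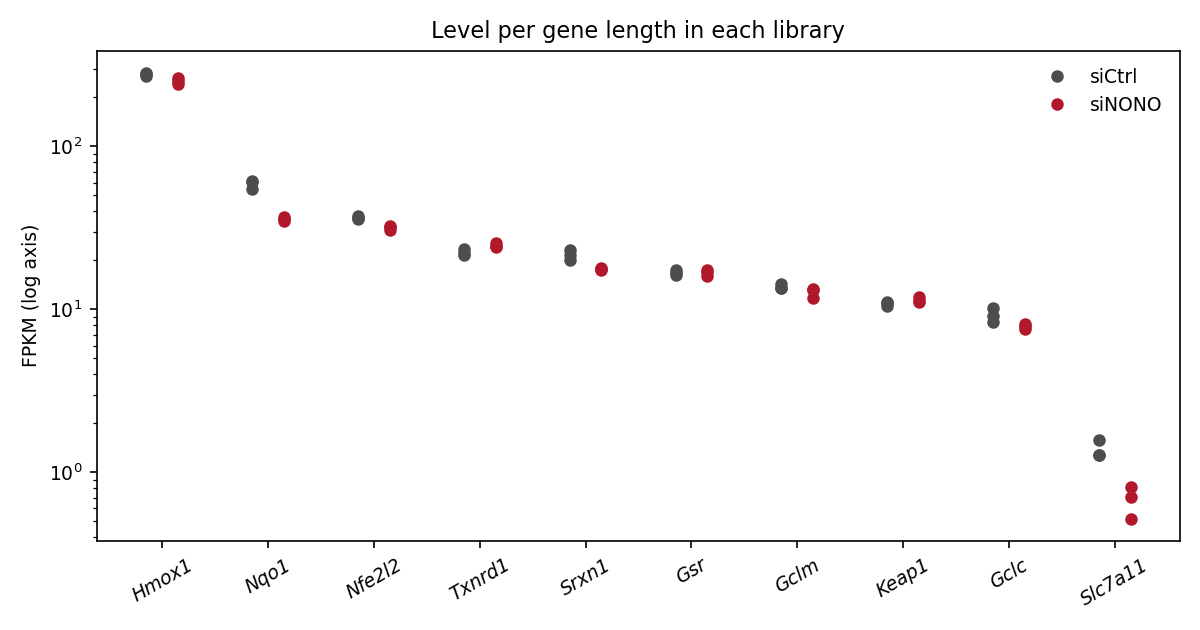
FPKM of each gene in the 3 siCtrl (grey) and 3 siNONO (red) libraries on a log axis, with genes ordered by their siCtrl mean and 1 point a library. Hmox1 lies highest (siCtrl mean 276 FPKM) and Slc7a11 lowest (1.38 FPKM), and the grey and red points are farthest apart for Slc7a11 and Nqo1.

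Of the 2 regulators, the mRNA of the transcription factor fell slightly and that of its inhibitor did not pass the test. Nfe2l2 (gene-Nfe2l2, chromosome 3) had 252, 259 and 253 CPM in siCtrl and 215, 209 and 217 CPM in siNONO. Every siNONO library was below every siCtrl library, and the libraries of each group lay close together. Its log2 fold change was -0.25 ± 0.04 (SE; edgeR adjusted p = 0.000214), which left 83.8% of the control level. Keap1 (gene-Keap1, chromosome 8), the substrate adaptor that holds NRF2 for degradation, had 41.2, 40.8 and 39.0 CPM in siCtrl and 39.8, 43.3 and 40.5 CPM in siNONO. These values overlapped, and the change was 0.03 ± 0.05 on the log2 scale (edgeR adjusted p = 0.664) and a 95% interval from -0.07 to 0.14. Without siNONO replicate 2 the value was -0.0098 (adjusted p = 0.909).

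Slc7a11 (gene-Slc7a11, chromosome 2) encodes xCT, the light chain of the antiporter that takes up cystine in exchange for glutamate and so supplies the cysteine for glutathione. It had 17.2, 20.4 and 16.8 CPM in siCtrl and 9.05, 6.65 and 10.3 CPM in siNONO. The groups were far apart, with siNONO replicate 2 the lowest and siCtrl replicate 2 the highest library. The raw counts behind these levels were 461 to 581 in siCtrl and 221 to 350 in siNONO. This was a log2 change of -1.06 ± 0.12 by edgeR (adjusted p = 2.17e-05), with a 95% interval from -1.33 to -0.80, and only 0.798% of the tested genes had a lower value. On the log2(FPKM + 1) scale, where a pseudocount of 1 is close to the level of this gene, the difference was -0.50 (limma adjusted p = 0.00200).

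Glutathione is made by glutamate-cysteine ligase and a second synthetase, and the ligase consists of a catalytic subunit, encoded by Gclc, and a modifier subunit, encoded by Gclm. Gclc (gene-Gclc, chromosome 8) had 33.8, 40.1 and 36.2 CPM in siCtrl and 30.5, 29.6 and 31.1 CPM in siNONO. It was lower in every siNONO library, and the siCtrl libraries spread more than the siNONO libraries. The log2 fold change was -0.27 ± 0.06 (edgeR adjusted p = 0.00342), and the call ended with log2(FPKM + 1) (-0.19; limma adjusted p = 0.0561) and with log2(FPKM + 0.1) (-0.21; limma adjusted p = 0.0509). Gclm (gene-Gclm, chromosome 2) had 22.9, 22.3 and 23.9 CPM in siCtrl and 21.1, 19.0 and 21.4 CPM in siNONO. The groups did not overlap, but the gap was narrow. Its log2 fold change of -0.17 ± 0.06 did not pass (edgeR adjusted p = 0.0545, 95% interval from -0.30 to -0.03), although it did with DESeq2 size factors (adjusted p = 0.0482). Whether Gclc and Gclm differed in their change was not tested.

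Gsr (gene-Gsr, chromosome 16), the glutathione reductase that returns oxidised glutathione to its reduced form with NADPH, had 47.6, 47.8 and 45.2 CPM in siCtrl and 45.6, 43.5 and 46.8 CPM in siNONO. The groups overlapped. Its log2 fold change of -0.05 ± 0.05 did not pass (edgeR adjusted p = 0.472; 95% interval from -0.15 to 0.05). With scaling by total library size it was 0.0027, so that its sign is set by the scaling.

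Of the 2 members of the thioredoxin arm, Srxn1 fell and Txnrd1 did not pass, and the difference between their changes was not tested. Txnrd1 (gene-Txnrd1, chromosome 7), the cytosolic thioredoxin reductase, had 89.7, 95.4 and 90.6 CPM in siCtrl and 95.4, 97.2 and 101 CPM in siNONO. The siNONO libraries tended higher, but siNONO replicate 1 was level with siCtrl replicate 2. The log2 fold change was 0.09 ± 0.04 (edgeR adjusted p = 0.128), with a 95% interval from -0.0024 to 0.19. Txnrd1 rose in 4 alternatives: with total library size (0.14; adjusted p = 0.0306), log2(FPKM + 1) (0.14; 0.0430), log2(FPKM + 0.1) (0.14; 0.0428) and, for genes with at least 1 FPKM in 3 libraries, log2(FPKM + 1) (0.14; 0.0376). All 4 scale by library size without TMM factors, and 64.3% to 65.5% of their calls over all genes were rises, against 50.5% with TMM. In the other alternatives Txnrd1 did not pass. Counts of Txnrd1 could include reads of genes that overlap it in the RefSeq gene table for GRCr8. Of these, Eid3 and LOC108351425 had 25 and 111 counts over all 6 libraries, against 2408 to 3449 per library for Txnrd1. The overlapping LOC134479652 and LOC134479653 have no row among the counts, so their level is not known.

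Srxn1 (gene-Srxn1, chromosome 3), sulfiredoxin, which restores overoxidised peroxiredoxins, had 70.6, 74.0 and 64.7 CPM in siCtrl. In siNONO it had 54.3, 55.3 and 55.6 CPM. Every siNONO library was lower, and the siNONO values were much closer together (SD 0.701 CPM against 4.69 in siCtrl). Srxn1 changed by -0.34 ± 0.05 on the log2 scale (edgeR adjusted p = 0.000190), which left 79.0% of the control level.

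The quinone reductase Nqo1 (gene-Nqo1, chromosome 19), a widely used reporter of NRF2 activity, had 99.7, 99.0 and 89.4 CPM in siCtrl and 54.6, 57.1 and 57.7 CPM in siNONO. The groups were well separated, and the lowest control, siCtrl replicate 3, was still far above the highest siNONO library. The log2 fold change was -0.76 ± 0.05 (edgeR adjusted p = 1.47e-07), with a 95% interval from -0.87 to -0.66, and 2.21% of the tested genes had a lower value. Its intervals did not overlap those of Nfe2l2, Gclc, Srxn1 and Hmox1, a description and not a test of the difference.

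Hmox1 (gene-Hmox1, chromosome 19), haem oxygenase 1, which breaks down haem to biliverdin, iron and carbon monoxide, had 657, 621 and 657 CPM in siCtrl. In siNONO it had 567, 602 and 546 CPM. All siNONO libraries were lower, with siNONO replicate 2 close to siCtrl replicate 2. Hmox1 changed by -0.17 ± 0.05 on the log2 scale (edgeR adjusted p = 0.0103). The call ended without siNONO replicate 1 (adjusted p = 0.0539), without siNONO replicate 3 (0.0625), with log2(FPKM + 1) (-0.13; limma adjusted p = 0.0505) and with log2(FPKM + 0.1) (-0.13; limma adjusted p = 0.0504). Macrophages express Hmox1 strongly. Of 11 tested macrophage markers, 4 fell (Csf1r, Adgre1, Mrc1 and Cd14; 36.4%, against 15.9% of all genes) and 0 rose, by edgeR. At an unadjusted p under 0.05 by edgeR, 6 were lowered and 0 raised, where 2957 of all 14412 genes were lowered and 3101 raised. The other 7 did not pass by adjusted p, and of these Ptprc (0.15) and Itgam (0.04) had positive log2 fold changes and the rest negative ones. The summed level of the 11 markers was 1487 to 1661 CPM in siCtrl and 1408 to 1513 CPM in siNONO. Most of this sum was Lyz2, with means of 1002 CPM in siCtrl and 921 CPM in siNONO (-0.12, not passing). The part of macrophages in the level of Hmox1 was not tested.

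**Figure D2:**
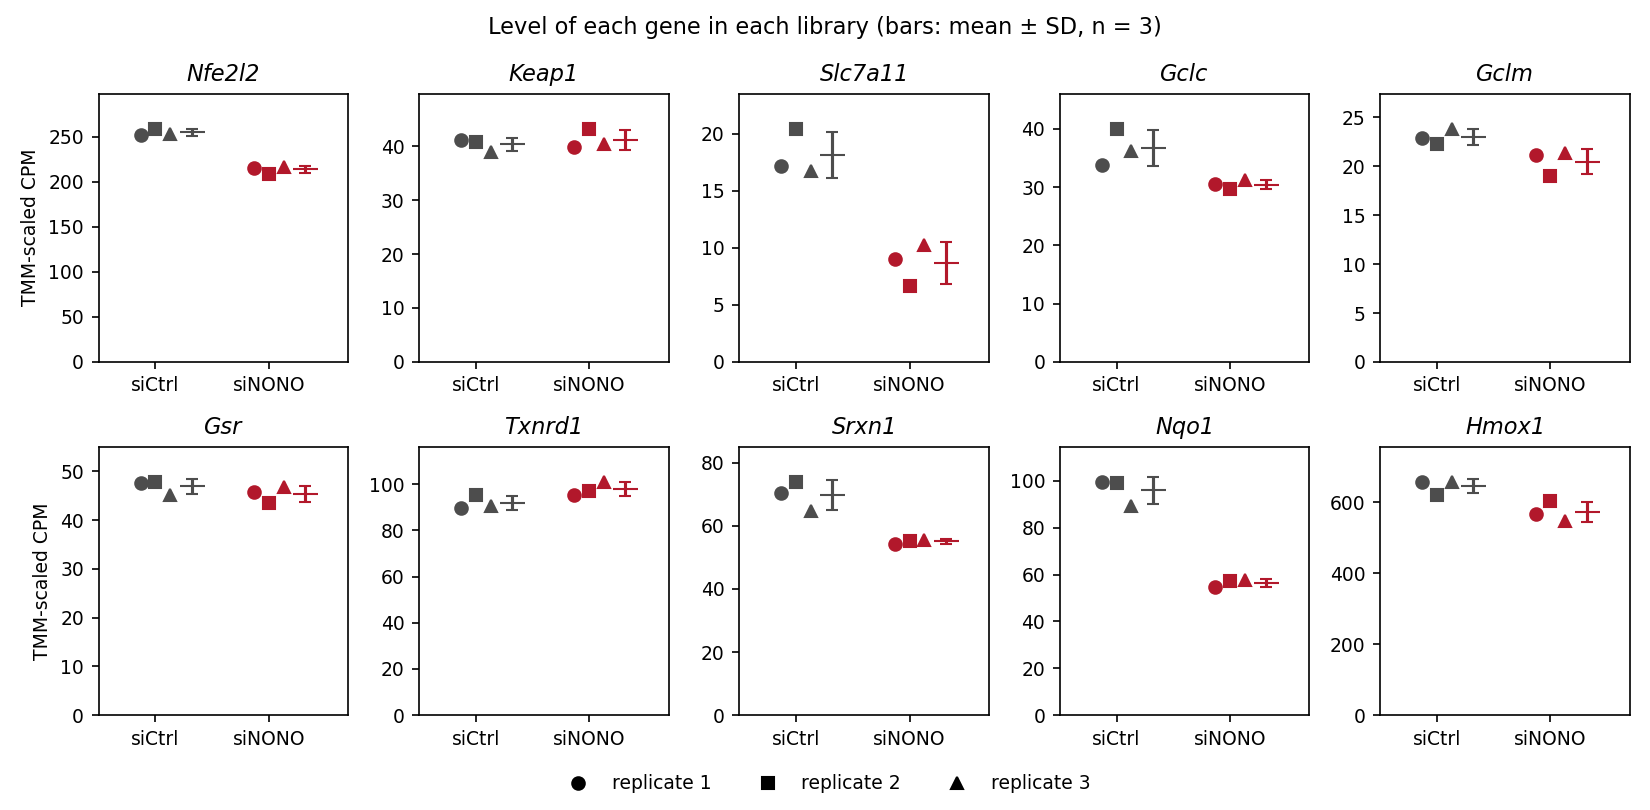
TMM-scaled CPM (vertical axes from 0) of the 10 genes in the siCtrl (grey) and siNONO (red) libraries, with a symbol for each replicate number and bars for mean ± SD (n = 3). The groups do not overlap for Nfe2l2, Slc7a11, Gclc, Gclm, Srxn1, Nqo1 and Hmox1, and overlap for Keap1, Gsr and Txnrd1.

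Over all genes tested, 2338 (16.2%) rose and 2292 (15.9%) fell, 50.5% of the calls being rises. With total library size 65.5% of the calls were rises (3174 to 1673), and with log2(FPKM + 1) 64.7%. By edgeR with TMM scaling, 3101 of the 14412 genes were raised and 2957 lowered at an unadjusted p under 0.05. Of the 10 genes 0 rose and 6 fell by edgeR (0 and 7 at an unadjusted p under 0.05), with a median log2 fold change of -0.21 against 0.00 for all genes. The DESeq2 Wald test also called 0 raised and 6 lowered. All siNONO values lay below all siCtrl values for 7 of the 10, against 22.1% of the tested genes. Since the 10 genes were chosen with earlier results known, these counts describe them and are not a test. Slc7a11, Nqo1, Nfe2l2 and Srxn1 passed the test in each of the 18 alternative settings. The filter of at least 1 FPKM in 3 libraries kept Slc7a11 only through siCtrl, so its pass in that setting adds no support. Slc7a11 had 1.28, 1.57 and 1.28 FPKM in siCtrl and 0.71, 0.52 and 0.81 FPKM in siNONO. The 6 genes that fell lie on 4 chromosomes.

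**Figure D3:**
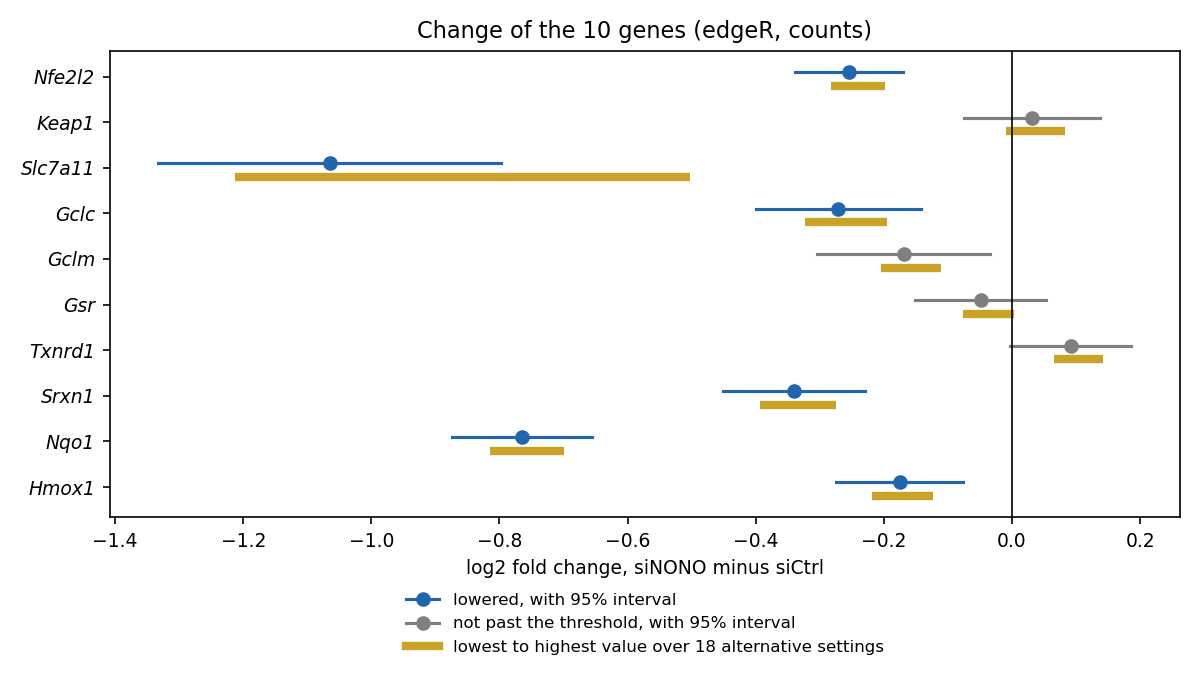
Log2 fold change of each of the 10 genes (siNONO minus siCtrl, edgeR) with its 95% interval, blue where the gene fell and grey where it did not pass, and below it in yellow the lowest and highest value over 18 alternative settings. Slc7a11 (-1.06) and Nqo1 (-0.76) lie farthest to the left, and the long yellow bar of Slc7a11 reaches -0.50, its value on the log2(FPKM + 1) scale.

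Related genes were read from 9 lists by role, 128 distinct genes of which 125 were tested. Of these, 59 fell (47.2%, against 15.9% of all genes) and 11 rose (8.80%, against 16.2%), with a median log2 fold change of -0.13. The lists were chosen with earlier results of these data known, so these shares are a description and not a test. With total library size 47 fell and 13 rose. Glutathione transferases, NADPH-supplying enzymes and genes of the amino acid stress response driven by ATF4 had the highest shares of members that fell. The counts of each list below by edgeR and adjusted p are to be read beside 15.9% fallen and 16.2% risen over all genes. Other settings have other shares. By edgeR at an unadjusted p under 0.05, 2957 of 14412 genes were lowered and 3101 raised. By DESeq2 2017 fell and 1898 rose, with log2(FPKM + 1) 1546 and 2829, and with a gene length correction 2551 and 2492. Without 1 library 1694 to 2143 fell and 1675 to 2243 rose, of 14490 to 14647 genes.

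Of 14 tested regulators and partners of NRF2, 4 rose (28.6%, against 16.2% of all genes) and 0 fell (against 15.9%) by edgeR. At an unadjusted p under 0.05, 3 were lowered, and by DESeq2 0 were. Bach1, a repressor that competes with NRF2 for its DNA elements, had 76.0 ± 2.60 CPM in siCtrl and 90.3 ± 4.13 CPM in siNONO (SD, n = 3 each) and rose by 0.25 ± 0.05 on the log2 scale (edgeR adjusted p = 0.00120). The small MAF gene Maff rose from 18.2 ± 0.672 to 24.9 ± 0.539 CPM (0.46 ± 0.06; adjusted p = 3.94e-05). In both genes every siNONO library was above every siCtrl library. The remaining raised members, named after their values were seen, were Nfe2l1, a relative of Nfe2l2 known for control of proteasome genes (0.19), and Dpp3, a peptidase that binds KEAP1 (0.17). Cul3 and Rbx1, parts of the ubiquitin ligase that KEAP1 serves and also singled out, had -0.06 and -0.07 and did not pass. With a gene length correction 4 members of this list were lowered, and 1 was lowered without siCtrl replicate 1, with DESeq2 size factors, with genes kept only at 1 CPM or more in 3 libraries and with a replicate block and the length correction together.

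Of 15 tested genes of cystine supply and glutathione turnover, 8 fell and 1 rose. Cth, cystathionine gamma-lyase, which makes cysteine from cystathionine, fell from 15.8 ± 1.17 to 9.77 ± 0.544 CPM (-0.69 ± 0.08; edgeR adjusted p = 1.97e-05). Ggt5, of the gamma-glutamyltransferase family, which cleaves glutathione conjugates outside the cell, fell from 2.74 ± 0.276 to 1.64 ± 0.227 CPM (-0.74 ± 0.17), a difference of -0.25 on the log2(FPKM + 1) scale. Slc3a2, the heavy chain that xCT needs at the cell surface, named after its values were seen, fell by 0.20 ± 0.04 on the log2 scale, with 340 CPM in siCtrl and 295 CPM in siNONO. Slc25a39, a mitochondrial carrier needed for glutathione import into mitochondria, went the other way, from 90.6 ± 7.96 to 146 ± 5.74 CPM (0.69 ± 0.06; edgeR adjusted p = 1.00e-06). With log2(FPKM + 1), 5 fell and 2 rose.

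Glutathione transferases, which join glutathione to electrophiles, fell in 11 of 17 and rose in 0, by edgeR (12 and 0 at an unadjusted p under 0.05, and 10 and 0 by DESeq2), with a median of -0.34. The largest falls were those of Gstt3, from 6.55 ± 0.513 to 2.34 ± 0.404 CPM (-1.49 ± 0.14, and -0.91 on the log2(FPKM + 1) scale), and Gsta4, from 24.5 ± 1.85 to 11.2 ± 1.67 CPM. Some transferase genes are close copies of each other, so those members are uncertain where reads could be split between them. Of 10 glutathione peroxidases and glutaredoxins, 3 fell (30%, against 15.9% of all genes) and 0 rose by edgeR, also at an unadjusted p under 0.05 and by DESeq2. Gpx1, which reduces hydrogen peroxide with glutathione, fell from 277 ± 19.0 to 196 ± 10.3 CPM (-0.50 ± 0.05). Gpx7 had -0.21 ± 0.06 (edgeR adjusted p = 0.0113), a call that ended without siNONO replicate 3 (0.0648), with log2(FPKM + 1) (limma adjusted p = 0.0525) and with log2(FPKM + 0.1) (limma adjusted p = 0.0507). In each of these settings 1 member of the list fell.

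The thioredoxin, peroxiredoxin and sestrin list had 6 of 14 lowered and 1 raised. Txnip, which binds thioredoxin and blocks it, rose from 471 ± 4.83 to 773 ± 21.0 CPM (0.71 ± 0.04; edgeR adjusted p = 3.45e-08), with no overlap between groups. Sesn3 fell from 46.3 ± 2.48 to 29.9 ± 0.826 CPM (-0.63 ± 0.05) and Sesn2 from 58.7 ± 2.98 to 45.7 ± 1.59 CPM (-0.36 ± 0.05). Sestrins are stress-induced inhibitors of mTORC1 signalling. The lowered count was 3 without siCtrl replicate 1, with 2 raised, and 3 without siNONO replicate 3. With a gene length correction 5 fell and 3 rose, and with log2(FPKM + 1) 3 fell.

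Of the superoxide dismutases 1 rose and 1 fell. Sod2, the mitochondrial enzyme, rose from 1009 ± 75.6 to 1317 ± 42.1 CPM (edgeR adjusted p = 8.43e-05; 0.39 ± 0.05), while Sod3, the secreted one, fell from 272 ± 7.29 to 204 ± 5.61 CPM (-0.42 ± 0.04). The cytosolic Sod1 (-0.09) and catalase (Cat, 0.01), singled out after their values were seen, did not pass. Among the methionine sulfoxide reductases Msrb1 fell from 82.1 ± 4.58 to 62.3 ± 1.18 CPM. Over the list of these and the dismutases, 3 of 9 genes fell (33.3%, against 15.9% of all genes) and 1 rose (11.1%, against 16.2%).

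Of 9 enzymes that supply NADPH, 6 fell and 0 rose by edgeR, also at an unadjusted p under 0.05 and by DESeq2. The malic enzyme gene Me1 fell from 74.4 ± 2.75 to 56.6 ± 3.29 CPM (-0.39 ± 0.05), and Pgls, of the pentose phosphate pathway, fell from 61.6 ± 6.69 to 48.6 ± 2.71 CPM (-0.34 ± 0.07). Without siNONO replicate 1, 3 fell.

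Genes of haem, iron, quinone and carbonyl metabolism fell in 10 of 18 and rose in 2. Enzymes that oxidise aldehydes fell most, Aldh3a1 from 4.66 ± 0.727 to 2.53 ± 0.306 CPM (-0.88 ± 0.15, and -0.53 on the log2(FPKM + 1) scale) and Aox1 from 75.8 ± 10.9 to 44.0 ± 6.10 CPM (-0.79 ± 0.10). Both ferritin genes and the iron exporter ferroportin, singled out after their values were seen, fell: Fth1 had -0.18, Ftl1 -0.25 and Slc40a1 -0.52, the ferritin values being uncertain because ferritin genes have many processed copies. The transferrin receptor gene Tfrc, which takes up iron, rose from 20.1 ± 2.30 to 24.2 ± 0.892 CPM (edgeR adjusted p = 0.0137; 0.27 ± 0.07). Fech, the last enzyme of haem synthesis, rose from 33.6 ± 1.86 to 43.1 ± 0.988 CPM (0.36 ± 0.05). Without siNONO replicate 1 Tfrc did not pass (0.24; adjusted p = 0.0677), and 6 members fell and 1 rose. With log2(FPKM + 1) 6 fell.

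ATF4 is the transcription factor of amino acid stress and, like NRF2, an activator of Slc7a11. Of 21 tested genes of its response, 14 fell and 2 rose, with a median of -0.28. The 14 include Chac1 and Sesn2, which are also counted above, in the lists of glutathione turnover and of sestrins. Vldlr, a lipoprotein receptor, fell from 163 ± 2.35 to 122 ± 2.51 CPM (-0.42 ± 0.04), and Chac1, which degrades glutathione, from 21.9 ± 1.61 to 16.4 ± 0.952 CPM (-0.41 ± 0.07). Ddit3, which encodes CHOP, rose from 98.2 ± 14.4 to 132 ± 9.62 CPM (0.43 ± 0.08), and Stc2, a secreted glycoprotein, from 32.1 ± 1.13 to 37.7 ± 0.518 CPM (0.23 ± 0.05). The amino acid synthesis genes Asns, Psat1 and Phgdh, singled out after their values were seen, fell, with -0.23, -0.40 and -0.32. Atf4 itself, also singled out, had -0.11 ± 0.04 and did not pass (edgeR adjusted p = 0.0576).

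**Figure D4:**
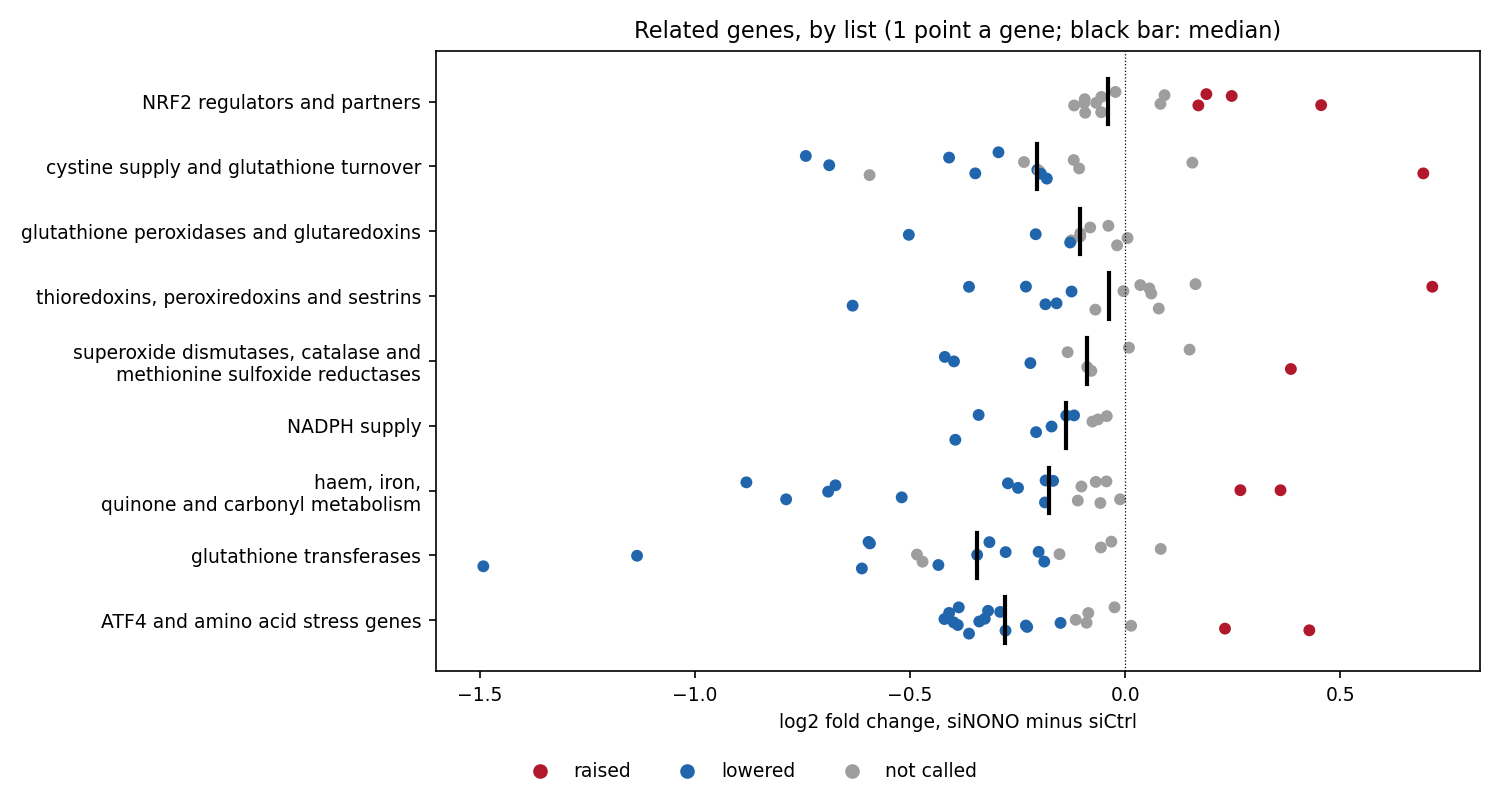
Log2 fold change (siNONO minus siCtrl, edgeR) of each tested gene in the 9 lists of related genes, 1 point a gene, red where it rose, blue where it fell and grey where it did not pass, with a black bar at the median of the list. Blue points prevail for glutathione transferases (11 of 17), NADPH supply (6 of 9) and ATF4 genes (14 of 21), and regulators of NRF2 show 4 red points and 0 blue.

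The genes whose pattern over the 6 libraries was most like that of Slc7a11 or Nqo1 were sought among 10085 tested genes with a mean of at least 5 CPM and a proper symbol. The measure was the Euclidean distance between log2 CPM values centred on each gene's mean, which is set mostly by the difference between the groups. Nearest to Slc7a11 were the basement membrane gene Nid1 (distance 0.451; log2 fold change -1.16), the smooth muscle gene Lmod1 (0.465; -0.88) and the smooth muscle actin gene Acta2 (0.472; -1.03). Nearest to Nqo1 were Tagln, an actin-binding protein of smooth muscle (0.109; -0.79), Mtx2 of the mitochondrial outer membrane (0.118; -0.83) and Hmox2, the constitutive haem oxygenase (0.124; -0.69). The distances to Slc7a11 were larger, in a gene whose own libraries spread more (coefficient of variation 11.1% in siCtrl and 21.2% in siNONO, against 6.01% and 2.99% for Nqo1).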

How the data were processed

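Per the labels' protocols, poly(A)-selected RNA went through a stranded kit. HISAT2, edgeR and build mRatBN7.2 are named per the submitters' processing notes; versions, read counter and strand setting: not given in the sources used here. The authors deposited whole-number read counts per gene, and FPKM values for 21081 genes, which the authors had divided by length and depth. There were 0 columns of other samples. A count of 0 allows up to 3 counts, 0.0899 to 0.108 CPM per library, for counting error only.

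Counts were filtered with filterByExpr, scaled by TMM and tested in R 4.3.3 with edgeR 4.0.16 (quasi-likelihood, two-sided, 4 residual degrees of freedom, common biological coefficient of variation 4.82%). SE is the log2 fold change over the root of F. Chi-square per degree of freedom within groups was 3.33 to 8.05, so no libraries were copies. Alternatives used DESeq2 1.42.0, limma 3.58.1 on log2(FPKM + 1) or log2(FPKM + 0.1), other scalings and filters, a robust fit, a replicate block, a gene length correction (spline on lengths recovered as count / FPKM / total, had by 98.2% of tested genes) and each library left out. The fits were tested on simulated data.

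The members and lists were chosen with earlier results of these data known. The rule for named genes took the 10 genes, Nono, up to 2 largest rises and 2 largest falls past the threshold per list, and the 3 nearest patterns to Slc7a11 and to Nqo1; other genes are said to be singled out. The 10 symbols matched the RefSeq gene table for GRCr8, used for names and neighbours only. Markers of endothelium (1 raised, 0 lowered of 6 tested), smooth muscle and pericytes (0 and 4 of 7), red cells (0 and 0 of 1), cardiomyocytes (0 and 1 of 2) and fibroblasts (1 and 5 of 11) were also counted. The shares over all genes tested were 16.2% raised and 15.9% lowered. Plots used Python 3.11.15 with matplotlib 3.10.9.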

Additional observations from a re-analysis of the deposited data

How the results depend on the processing

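Over 18 alternative settings, the lowered count of the 10 genes stayed between 4 and 7, and its raised count was 1 (Txnrd1) with total library size, log2(FPKM + 1), log2(FPKM + 0.1) and at least 1 FPKM in 3 libraries, and 0 otherwise. With at least 1 FPKM in 3 libraries 1424 of all genes were lowered, a setting with another scale and fewer genes tested (11092). With log2(FPKM + 1) over all 14412 genes 1546 were lowered. Gsr, which did not pass in any setting, turned to 0.0027 with total library size, 0.00021 with log2(FPKM + 1), 0.00020 with log2(FPKM + 0.1) and 0.00021 with at least 1 FPKM in 3 libraries, and Keap1, which likewise did not pass, to -0.0098 without siNONO replicate 2 (-0.0098 to 0.052 over the fits without 1 library). Of the comparisons of 42 named genes with their alternatives, 735 kept direction and side of the threshold, 10 lost the call, 5 gained it and 5 turned direction; the cause was not tested. Libraries of equal replicate number did not vary together (correlation of deviations -0.05, -0.09 and -0.0068 for numbers 1, 2 and 3). With 3 libraries a group this cannot settle whether equal numbers shared a culture. With a replicate block 6 of the 10 genes were lowered and 0 raised, and 3757 of all genes were called against 4630. Slc7a11 had the fewest counts of the 10 genes (221 in siNONO replicate 2) and the largest SD relative to the mean CPM in each group (11.1% and 21.2%).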

Other observations

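The neighbours of the 10 genes on the chromosome were looked up in the RefSeq gene table for GRCr8, a choice made after the data were seen. Of the protein-coding genes next to the 6 that fell, Nfat5 beside Nqo1 (log2 fold change -0.21; edgeR adjusted p = 0.0156), Tom1 beside Hmox1 (-0.15; 0.0233), Elovl5 beside Gclc (-0.24; 0.000414) and Pcdh18 beside Slc7a11 (-0.43; 0.00199) also fell, while Hnrnpa3 beside Nfe2l2 rose (0.15; 0.0104). On the other side, Nob1 next to Nqo1 (-0.08), Mcm5 next to Hmox1 (0.16), Noct next to Slc7a11 (0.24), Agps next to Nfe2l2 (0.21) and Klhl31 next to Gclc (-0.06) did not pass. Both neighbours of Srxn1 were not tested. Beside the members that did not pass, Ubxn8 next to Gsr (-0.48; edgeR adjusted p = 6.44e-05) and Chst11 next to Txnrd1 (-0.16; 0.0374) fell, and Abca4 next to Gclm rose (1.32; 3.20e-05). The remaining flanking genes tested, Gtf2e2 (-0.03) beside Gsr, Nfyb (-0.02) beside Txnrd1, Dnttip2 (0.04) beside Gclm and Pde4a (-0.02) beside Keap1, did not pass. Besides the genes that overlap Txnrd1, LOC134483111 overlaps Hmox1, and LOC120097494 and LOC134482513 overlap Gsr. These have no row among the counts, so reads of theirs counted for Hmox1 or Gsr could not be told apart.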
